A study of Mus musculus with 4 samples.

Results

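Cycling leukocytes were described here: barcodes of CD45-enriched lung cells that carried transcripts of the cell division machinery, whatever their lineage. A barcode stands for 1 droplet, and its RNA molecules are counted by unique molecular identifiers (UMIs). A member had at least 200 genes, at most 10% mitochondrial UMIs, at least 3 UMIs in the sum of Mki67, Top2a, Cdk1 and Birc5, at least 1 UMI of Ptprc, the CD45 gene, and no UMI of Cdh5, the endothelial cadherin. This left 400 members among 7592 leukocyte barcodes (the same limits without the 4-gene sum), out of 10382 barcodes in all. The other 7192 leukocyte barcodes are called other leukocytes below. Of 445 filtered barcodes past the 4-gene sum, 35 lacked Ptprc and 10 had Ptprc together with Cdh5.

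A dividing cell first copies its DNA in S phase, with the MCM helicase, the PCNA clamp and newly made histones, and then separates the copies in mitosis, driven by cyclins A and B with the kinase CDK1, by Aurora and Polo kinases and by spindle motors. Mki67 encodes Ki-67, which coats mitotic chromosomes and marks cells outside the resting state. Top2a encodes the topoisomerase that untangles DNA, and Birc5 encodes survivin, a subunit of the chromosomal passenger complex. In the lung, alveolar macrophages renew themselves by local division, T cells divide after antigen contact, and neutrophils divide in the bone marrow and reach tissues as cells that no longer cycle.

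Balb/c mice had been given 4T1 cells by vein; 4T1 is a breast tumour line of the same strain that forms lung metastases. The injected cells were wild type in 2 libraries, labelled WT, or knocked out for PD-L1, which binds the T cell inhibitory receptor PD-1, in 2 libraries, labelled PD-L1 KO, and lungs were taken after 14 days. All mice carried tumour cells, no library came from a lung without them, and the host cells kept their own PD-L1 gene. The labels do not state separate mice for each library, so p-values measure how far these libraries spread and that spread may be only technical. The deposited file names carry the opposite condition of the labels, and every direction below rests on the labels.

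The 4 libraries held 17618220 to 19635983 UMIs in 2370 to 2736 barcodes each. Any pair of libraries shared at most 3 barcode sequences, and no shared barcode was a member. Members held more RNA than other leukocytes: their median per library was 15740 to 18594.5 UMIs against 4504 to 5278, and 3887 to 4295 genes against 1700 to 1874. Median mitochondrial shares were 4.75% to 5.24% in members and 4.13% to 4.63% in the others. Markers of non-leukocytes were measured beside these: summed CPM (a gene's UMIs scaled to 1000000 per sum of barcodes) of 10 epithelial and carcinoma genes was 73.4 to 141 in members and 91.4 to 370 in other leukocytes, and was higher in members of WT 1 (141 against 116) and PD-L1 KO 2 (126 against 91.4). Of these genes, Cldn4 had no UMI in members, Krt18 stood at 18.0 CPM in members and 8.80 in others (2.75% and 0.751% of barcodes), and Epcam at 19.2 and 26.0 CPM (18.5% and 9.0%). By library, Krt18 stood at 37.3 and 0 CPM in members of WT 1 and 2 and at 0.410 and 26.8 CPM in PD-L1 KO 1 and 2. Cycling alveolar macrophages, assigned by a marker below, had 82.2 CPM of it in 3 of 86 barcodes, and other alveolar macrophages 38.0 CPM. Cycling T cells had 1.90 CPM. The part of these transcripts in the results was not tested. The 7 fibroblast genes summed to at most 2.98 CPM in members.

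The 4 genes that define the members are shown with their promoters because their UMIs chose every cell described here. Mki67 (ENSMUSG00000031004) lies on chr7:135689784-135716361, minus strand; Top2a (ENSMUSG00000020914) on chr11:98992943-99024189, minus strand; Cdk1 (ENSMUSG00000019942) on chr10:69335146-69352938, minus strand; and Birc5 (ENSMUSG00000017716) on chr11:117849251-117855743, plus strand (GRCm38, GENCODE M21). The 150 bases before each RefSeq transcription start (GRCm38.p6) are printed 5′ to 3′ on the gene's strand. They cover chr7:135716380-135716529, chr11:99024190-99024339, chr10:69352913-69353062 and chr11:117849087-117849236, in the order below. Capitals mark 2 textbook elements of promoters of mitotic genes, the cell cycle genes homology region (TTTGAA or TTCGAA on either strand) and the CCAAT box (CCAAT on either strand); matches were counted whether or not they overlap.
Mki67: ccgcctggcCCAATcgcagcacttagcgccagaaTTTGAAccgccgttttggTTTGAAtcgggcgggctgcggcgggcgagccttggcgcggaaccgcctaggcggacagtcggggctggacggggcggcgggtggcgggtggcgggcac
Top2a: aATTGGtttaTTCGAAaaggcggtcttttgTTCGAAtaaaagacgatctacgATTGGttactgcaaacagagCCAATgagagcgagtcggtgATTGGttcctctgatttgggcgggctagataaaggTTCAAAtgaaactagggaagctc
Cdk1: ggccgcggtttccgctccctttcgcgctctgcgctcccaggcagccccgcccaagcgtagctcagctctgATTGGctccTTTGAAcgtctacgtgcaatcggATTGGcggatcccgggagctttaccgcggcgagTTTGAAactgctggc
Birc5: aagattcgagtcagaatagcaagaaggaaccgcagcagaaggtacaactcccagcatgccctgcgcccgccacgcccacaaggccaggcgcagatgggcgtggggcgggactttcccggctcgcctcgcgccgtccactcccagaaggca

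Within 250 bases before the start, Mki67 held 2 matches to the homology region and 3 CCAAT boxes, Top2a 4 and 6, Cdk1 2 and 3, and the Birc5 window none of either. Both elements stood in 34.4% of 61 promoters of the G2 and mitosis list, in 11.1% of 45 promoters of the S phase and replication list, in 6.15% of 65 promoters of the type I interferon list and in 6.02% of all 32851 promoters of the RefSeq table. Counted without regard to the other element, CCAAT boxes stood in 77.0%, 57.8%, 26.2% and 33.8%, and the homology region in 39.3%, 15.6%, 27.7% and 17.1%, in the same order. These matches describe letters in the windows and nothing measured in the cells.

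The members were chosen by the measured UMIs of these 4 genes, so their values are a description. Mki67 stood at 485 and 873 CPM in members of WT 1 and WT 2 and at 450 and 513 CPM in PD-L1 KO 1 and 2, and 91% of members held a UMI of it. Top2a stood at 500, 658, 456 and 535 CPM, in the same order, with a UMI in 81.75% of members. For Cdk1 the values were 110, 145, 128 and 130 CPM (64.5% of members), and for Birc5 they were 234, 338, 267 and 298 CPM (76.5%). WT 2, the library with the fewest members, had the highest level of each of the 4 genes. In other leukocytes, 4.07% of barcodes held a UMI of Mki67, 4.23% of Top2a, 1.52% of Cdk1 and 1.28% of Birc5. Neutrophils, which should lack these transcripts, held any UMI of the 4 genes in 22 of 1228 barcodes (1.79%), at a median of 1880 UMIs per barcode.

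Cell cycle genes outside the rule were more abundant at higher 4-gene sums on both sides of the limit, though not at every step. The summed level of 52 S phase and replication genes was 704 CPM in the 6459 barcodes with none of the 4 transcripts, 1166 CPM in the 151 barcodes with 2, just outside the limit, 1790 CPM in the 53 with 3, just inside it, and 4181 CPM in the 226 with 10 or more. For the G2 and mitosis list (67 genes measured, 4 rule genes left out of the sum), the corresponding levels were 2473, 2963, 3921 and 17709 CPM. The step at the limit was thus small beside the rise from there to 10 or more. Members with 4 UMIs stood at 2031 CPM for the S phase list and at 3605 CPM for the G2 and mitosis list. In CPM, members with 3 or 4 UMIs were closer to the barcodes with 2 than to those with 10 or more. Barcodes past the limits of several lineages made up 18.5% at a sum of 0, 41.7% at 2, 52.8% at 3 and 30.1% at 10 or more.

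**Figure D1:**
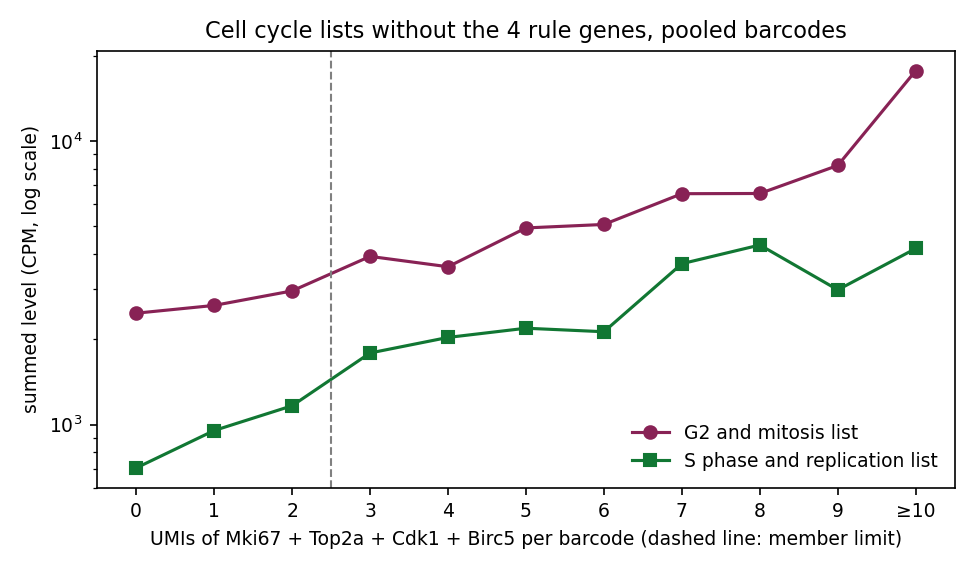
Summed level (CPM, log axis) of the S phase and replication list (squares) and the G2 and mitosis list (circles), both without the 4 rule genes, in leukocyte barcodes pooled over the 4 libraries by their UMI sum of Mki67, Top2a, Cdk1 and Birc5 (horizontal axis; the dashed line is the member limit). The G2 and mitosis list went from 2473 CPM at a sum of 0 to 3921 at 3 and 17709 at 10 or more.

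Transcripts of replication and of mitosis were often seen in the same member. Of the 400 members, 263 held UMIs from both a set of 5 replication genes (Mcm5, Mcm6, Pcna, Ccne2, E2f1) and a set of 5 mitosis genes (Ccnb1, Ccnb2, Cdc20, Plk1, Aurka), 79 only from the first, 47 only from the second and 11 from neither. A single UMI of the replication set is weak evidence of replication, since Pcna was seen in 17.9% and E2f1 in 8.30% of the shallower other leukocytes, and in 40.9% and 28.5% of other alveolar macrophages. Genes of the mitosis set were rarer there, with Ccnb2 in 0.932% and Cdc20 in 1.36% of other leukocytes. Among replication genes, Pcna, the polymerase clamp, was seen in 67.5% of members at 110 CPM pooled (33.3 in other leukocytes), Mcm5, a helicase subunit, in 59.25% at 97.4 CPM (14.3), Rrm2, the regulated subunit of ribonucleotide reductase, in 51.25% at 113 CPM (1.73), and Hist1h1b, a linker histone, in 48.25% at 177 CPM (2.99). Among mitosis genes, Ube2c, the ubiquitin carrier of the anaphase-promoting complex, was seen in 61.25% at 293 CPM (3.29), Ccnb2, a B-type cyclin, in 60.25% at 127 CPM (2.07), Ccna2, cyclin A2, in 58.25% at 116 CPM (0.442), Plk1, the Polo kinase, in 41.75% at 61.0 CPM (0.462) and Hmmr, a spindle protein, in 47.25% at 87.9 CPM (0.141). Ccnb1, the main mitotic cyclin, stood at 67.9 and 107 CPM in the WT and 87.8 and 78.6 CPM in the PD-L1 KO libraries. The inhibitor gene Cdkn1a (p21) stood at 280 CPM in members and 268 CPM in other leukocytes, but lineages, assigned below, went both ways. In cycling against other cells it was lower in T cells (45.6 against 75.8 CPM) and C1q macrophages (368 against 394). It was higher in alveolar macrophages (495 against 433) and in type 1 conventional dendritic cells (295 against 145).

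Members were assigned to lineages by UMI limits on marker genes: T for at least 2 UMIs of Cd3e, Cd3d and Cd3g together, natural killer (NK) for Ncr1 without T, B for at least 2 of Cd79a, alveolar macrophage for Plet1, C1q macrophage for at least 2 of C1qa without Plet1, type 1 conventional dendritic cell (cDC1) for Xcr1, neutrophil for at least 10 of S100a8 and monocyte for at least 2 of Ly6c2 with nothing else. The names below stand for these limits. Mixed barcodes passed limits of more than 1 of the families T or NK, B, macrophage or dendritic, and neutrophil. Barcodes past the cDC1 limit together with the alveolar or C1q macrophage limit were called mixed too. By library (WT 1, WT 2, PD-L1 KO 1, PD-L1 KO 2), the members comprised 20, 11, 19 and 21 T, 2, 6, 3 and 3 NK, 0, 2, 2 and 3 B, 25, 10, 24 and 27 alveolar macrophage, 11, 4, 15 and 12 C1q macrophage, and 8, 6, 0 and 1 cDC1 barcodes. WT 1 added 3 neutrophil barcodes, WT 2 added 1 monocyte barcode, 146 members were mixed and 15 passed no limit.

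The lineages differed widely in how much of them was cycling. The pooled cycling share was 15.6% of 96 cDC1, 13.9% of 303 C1q macrophages, 8.63% of 997 alveolar macrophages, 5.98% of 1188 T cells, 3.08% of 454 NK cells, 1.15% of 607 B cells, 0.275% of 364 monocytes and 0.244% of 1228 neutrophils. The place of cDC1 rested on the WT libraries, with 30.8% and 18.8%; at 0% and 5% in the PD-L1 KO libraries, cDC1 lay below both macrophage classes there. In every library the C1q share was above the alveolar macrophage share, and the alveolar macrophage share was above the T share. The order of T and NK cells went the other way in WT 2 (3.29% of T and 5.94% of NK cells). Deeper barcodes pass a UMI limit more easily, and other barcodes had medians of 10974 UMIs in cDC1, 10082 in alveolar macrophages, 7851 in C1q macrophages, 4168 in T, 2854 in NK, 2918.5 in B cells and 1880 in neutrophils. With each barcode thinned to 3000 UMIs and shallower ones left out, the shares were 10.6% of 94 cDC1, 6.05% of 281 C1q macrophages, 5.77% of 988 alveolar macrophages, 5.02% of 996 T, 3.88% of 206 NK and 1.02% of 293 B cells. The thinned shares of macrophages and T cells lay closer together, and that of B cells stayed lower. Lineages were still those called at full depth, and thinning left out more T and B barcodes than alveolar macrophages. Thinned means of C1q macrophages, alveolar macrophages and T cells were 6.51%, 4.93% and 4.21% in the WT libraries. In the PD-L1 KO libraries they were 5.87%, 6.58% and 6.45%. The part of depth in the gap was not tested apart from this. No thinned monocyte of 357 was cycling, and 2 of 264 neutrophils were.

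**Figure D2:**
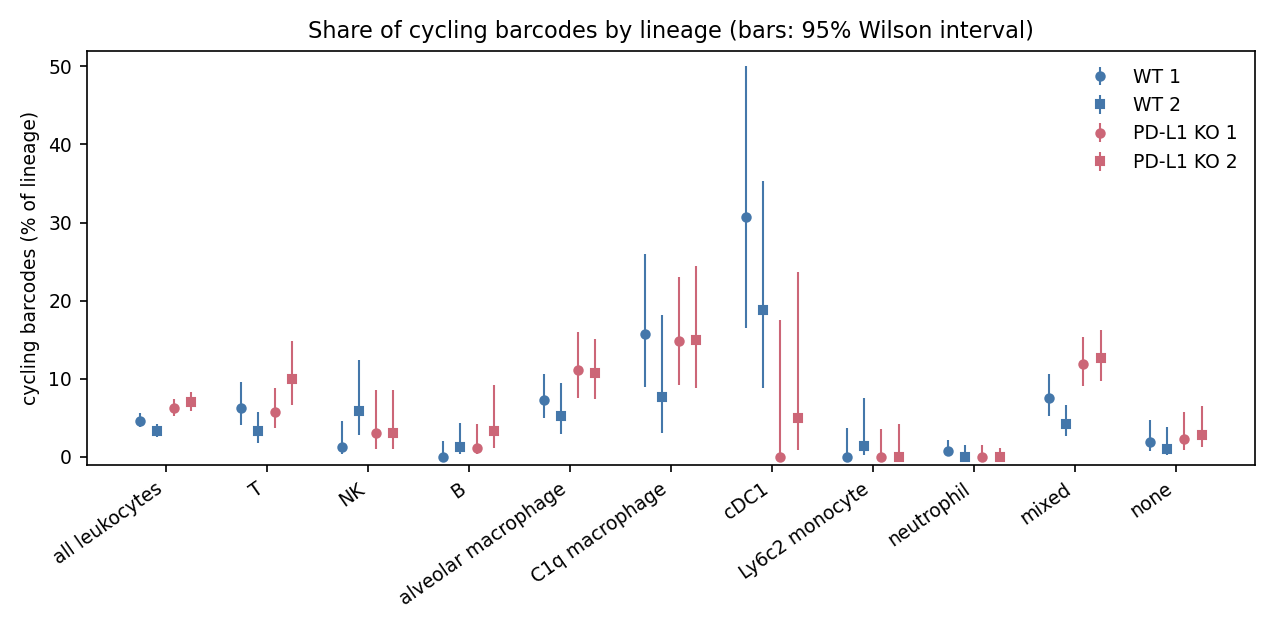
Share of cycling barcodes (percent, vertical axis) in all leukocytes and in each lineage, with 1 point per library and its 95% Wilson interval, which covers counting error only; blue is WT and red PD-L1 KO. Neutrophils and monocytes lie near 0 in every library, and WT 1 and WT 2 stand at 30.8% and 18.8% for cDC1 against 0% and 5% in PD-L1 KO 1 and 2.

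Marker UMIs assigned the lineages, so their levels are a description, and they follow the greater depth of members. Cycling T barcodes had a median of 26 CD3 UMIs (9 in other T), at most 1 UMI of C1qa and none of Plet1 or Xcr1. Cycling NK barcodes had a median of 11.5 Ncr1 UMIs (5 in others), alveolar macrophages 14 of Plet1 (12), C1q macrophages 102 of C1qa (42), cDC1 8 of Xcr1 (6) and B cells 16 of Cd79a (8). Per UMI the T marker was not higher: Cd3e stood at 435, 447, 456 and 337 CPM in cycling and at 461, 405, 470 and 386 CPM in other T cells. Counted by a single UMI, 49.25% of members held a CD3 transcript (31.8% of other leukocytes), 38.25% C1qa (16.9%), 29.75% Plet1 (16.8%), 22% Cd79a (19.0%), 11.75% Xcr1 (2.34%), 11.5% Ncr1 (10.1%), 17% Ly6c2 (18.7%) and 38.25% S100a8 (41.6%). The S100a8 share was thus far above the share of neutrophil members, 3 of 400.

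Mixed barcodes were the most common class, with 146 members (36.5%) against 20.4% of other leukocytes. Members were deeper, at a pooled median of 17184.5 UMIs against 4916.5 in other leukocytes, and deeper barcodes pass several limits more easily. Mixed barcodes among other leukocytes had a median of 10031 UMIs. The part of depth in the higher mixed share of members was not tested. Of the 146 mixed members, 74 passed 2 limits, 42 passed 3 and 30 passed more. The T limit was passed by 104, the C1q by 90, the B by 71, the neutrophil by 69, the alveolar macrophage by 33 and the cDC1 limit by 32. A T limit with a macrophage or dendritic one was passed by 81, and T with B by 50. Median UMIs were 21861 to 28817.5 per library in mixed members and 13570.5 to 15771 in the rest, and Scrublet, a doublet caller, placed 8 of the 146 (5.48%) and 9 of all 400 members among its highest scores. Cell cycle levels were lower in mixed members: the G2 and mitosis list stood at 5801, 10857, 9349 and 9607 CPM in them, below the 15678, 20440, 15372 and 14992 CPM of single-lineage members. For list levels, single-lineage members are 239 barcodes, with those of no lineage left out. Whether mixed barcodes are doublets, cells with engulfed or free RNA, or both, was not tested.

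**Figure D3:**
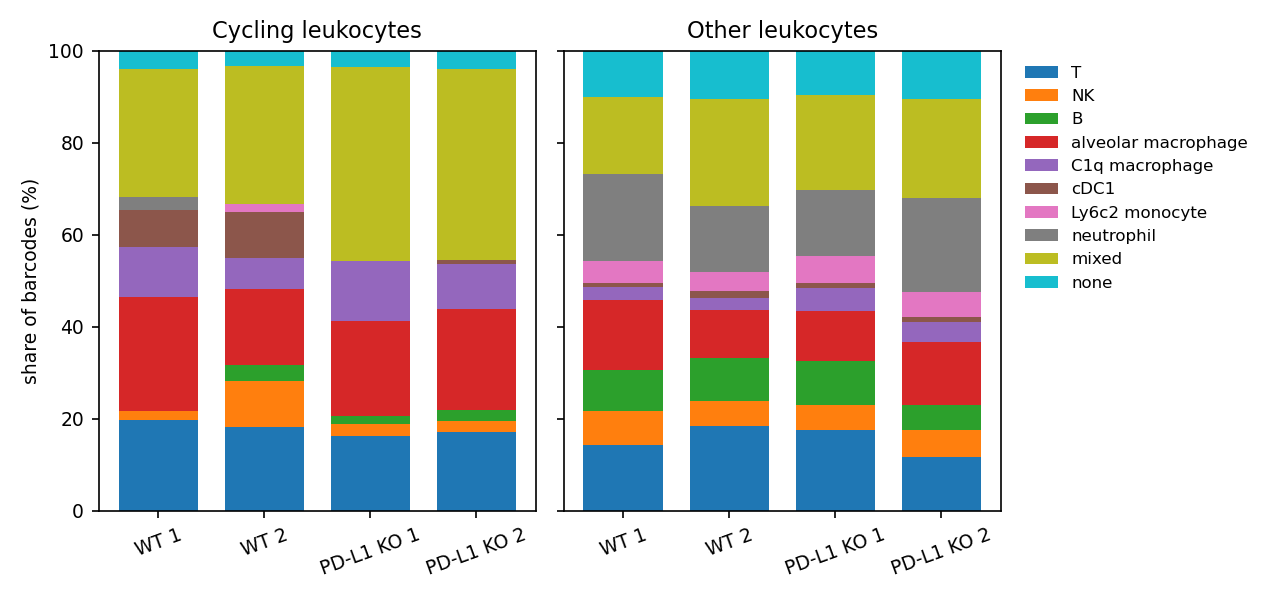
Lineage makeup (percent of barcodes, vertical axis) of cycling leukocytes, left, and other leukocytes, right, in each of the 4 libraries; colours are the lineages assigned by marker UMIs. Neutrophils (grey) are prominent on the right and nearly missing on the left, and mixed barcodes take 28.9% ± 1.61 of members in the WT and 41.9% ± 0.550 in the PD-L1 KO libraries (SD, n = 2).

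The share of cycling leukocytes was 4.66% and 3.33% in WT 1 and 2 and 6.20% and 7.03% in PD-L1 KO 1 and 2. Means were 3.99% ± 0.941 and 6.62% ± 0.586 (SD, n = 2), a difference of 2.63 points, and the groups did not overlap (exact two-sided permutation test, p = 0.333, the smallest that 2 against 2 libraries can give). Without mixed barcodes the difference was 1.41 points: the shares were 4.07%, 3.05%, 4.59% and 5.35%, with means of 3.56% ± 0.722 and 4.97% ± 0.532 (254 of 5980 barcodes). After thinning to 3000 UMIs the means were 3.26% ± 0.586 and 4.47% ± 0.774 (SD, n = 2; 210 of 5462 barcodes). Median depth of other leukocytes was higher in the PD-L1 KO libraries (5131 and 5278 UMIs) than in the WT libraries (4504 and 4869); its part in the unthinned shares was not tested.

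By lineage, alveolar macrophages were cycling at 7.35% and 5.29% in the WT and 11.1% and 10.7% in the PD-L1 KO libraries, without overlap (6.32% ± 1.46 and 10.9% ± 0.281, SD, n = 2; exact permutation p = 0.333, 0.833 after Benjamini-Hochberg adjustment over lineages). Their thinned means were 4.93% ± 0.982 and 6.58% ± 1.32. T cells were cycling at 6.33% and 3.29% in the WT and 5.79% and 10% in the PD-L1 KO libraries, which overlap. C1q macrophages stood at 15.7%, 7.69%, 14.9% and 15%; WT 2 alone was low, and the order of the group means reversed after thinning (6.51% and 5.87%). For cDC1 the counts were 8 of 26 and 6 of 32 in the WT and 0 of 18 and 1 of 20 in the PD-L1 KO libraries, and 0 of 18 allows a share of up to 16.7%. That gap depended on how mixed barcodes were treated: over all barcodes with an Xcr1 UMI, 21.2% ± 6.79 were cycling in the WT and 23.1% ± 1.26 in the PD-L1 KO libraries (SD, n = 2; 47 of 215), and 32 of those 47 were mixed. B cells were cycling at 0%, 1.21%, 1.18% and 3.30%, where 0 of 182 allows up to 1.65%. Makeup shares among members had adjusted p-values of 1 (exact permutation tests) in each lineage, also for the mixed class.

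Cycling T cells were next compared with other T cells of the same libraries, as a description, since the rule chose them by their transcripts. Genes were taken as higher or lower when all 4 libraries went the same way, which 25.1% and 20.9% of the 6493 measured genes did. Measured means at least 100 UMIs in cycling and other cells together, so a gene seen mainly in cycling cells could enter only through them. All 36 measured genes of the S phase and replication list were higher (median log2 ratio 2.53), as were 44 of 45 of the G2 and mitosis list (median 4.05). Hmmr stood at 126, 153, 128 and 178 CPM in cycling T cells and had no UMI in 1117 other T cells. Outside the lists, the highest were Knl1, a kinetochore scaffold (81.5, 180, 122 and 195 CPM; at most 1.85 in others), Aspm, a spindle pole protein, Spc24, a kinetochore subunit, and Ncapg, a condensin subunit.

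All 9 genes of the naive and memory T list were lower in cycling T cells in every library, with a median log2 ratio of -2.22. Igfbp4 stood at 6.79, 6.67, 0 and 17.8 CPM in cycling and at 267, 361, 298 and 291 CPM in other T cells. Ccr7, the lymph node homing receptor, stood at 95.1, 153, 97.9 and 85.2 against 501, 650, 573 and 420 CPM, and Il7r, the interleukin-7 receptor, had a mean log2 ratio of -2.42 ± 0.413 (SD, n = 4). Klf2, the factor that maintains T cell quiescence, stood at 659, 887, 202 and 352 against 1630, 1804, 1313 and 1166 CPM. Among 9 measured checkpoint receptor genes, 5 were higher and 2 lower. Pdcd1, the PD-1 gene, stood at 187, 33.4, 245 and 128 CPM in cycling and at 39.8, 12.9, 51.9 and 61.0 CPM in other T cells, and WT 2 was lowest in both. Lag3 had a log2 ratio of 2.03 ± 0.279 and Ctla4 of 1.04 ± 0.596 (SD, n = 4), and the lowest ratio in the checkpoint list was -1.28. The granzyme gene Gzmb had a log2 ratio of 1.29 ± 0.498 (SD, n = 4). It was not typical of the cytotoxic effector list, where 4 of 19 measured genes were higher and 3 lower (median 0.11, lowest -1.84). Of all genes, 25.1% were higher and 20.9% lower. Glycolysis genes were higher for 8 of 14, with Gapdh at 1.59 ± 0.342 and Ldha at 1.09 ± 0.305. Transcripts of macrophages were lower in cycling T cells: Lyz2, a lysozyme, stood at 581, 93.4, 150 and 10.7 against 1492, 1405, 1738 and 3098 CPM. Of the list genes, 5 of 8 for monocytes and 3 of 4 for C1q macrophages were lower. The lineage limits bear on these values, since T barcodes hold at most 1 UMI of C1qa and none of Plet1 or Xcr1 at any depth. That is stricter per UMI in the deeper cycling T barcodes (median 13181 against 4168 UMIs), and its part was not tested.

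T subsets were also compared as shares of barcodes. After thinning to 3000 UMIs (71 cycling, 925 other T cells), 32.4% of cycling T cells had a Pdcd1 UMI against 6.59% of others, 39.4% against 16.1% had Ctla4, 21.1% against 6.59% had Gzmb, and 11.3% against 4.76% had Foxp3, the regulatory T cell factor. Pdcd1, Ctla4 and Gzmb shares were higher in cycling T cells of every library, while Foxp3 was seen in 0 of 11 cycling T cells of WT 2 (3.32% of others). Cd8a or Cd8b1 was seen in 52.1% against 37.3% and Cd4 in 9.86% against 20.9%, but WT 2 went the other way for both (27.3% against 38.7%, and 27.3% against 21.4%). At full depth, Cd8a or Cd8b1 without Cd4 was seen in 43.7% against 34.9%, Cd4 without them in 26.8% against 26.2% and both in 12.7% against 2.24%. No lower Cd4 share was seen there, but cycling T barcodes are deeper (median 13181 against 4168 UMIs), which raises detection. Per UMI, Cd4 was lower in cycling T cells of each library (54.3, 66.7, 24.5 and 74.6 against 91.9, 82.3, 81.5 and 76.9 CPM), on 8 to 21 UMIs per cycling sum. Cd8a was higher in each (299, 160, 646 and 352 against 172, 120, 201 and 167 CPM). For the other genes the full-depth shares were 47.9% and 9.67% for Pdcd1, 74.6% and 24.1% for Ctla4, 28.2% and 9.40% for Gzmb and 26.8% and 7.34% for Foxp3. The 86 cycling alveolar macrophages, at a median of 16899 UMIs against 13181 in cycling T cells, held no UMI of any of these 4 genes.

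In alveolar macrophages, 21.9% of 8104 genes were higher and 14.5% lower in cycling than in other cells of all 4 libraries. All 41 measured S phase and replication genes were higher (median log2 ratio 2.60), and all 57 G2 and mitosis genes (median 5.09). Ccna2 stood at 212, 237, 120 and 172 CPM and Kif11, a spindle motor, at 156, 151, 86.6 and 77.3 CPM, and neither had a UMI in 911 other alveolar macrophages. Foxm1, the factor that drives mitotic genes, stood at 69.9, 75.5, 67.6 and 45.6 CPM and at most 0.620 CPM in others. The alveolar identity list went the other way, with 11 of 15 genes lower, 0 higher and a median of -0.56. Lpl, lipoprotein lipase, stood at 1049, 1623, 1504 and 1215 against 2268, 2833, 2248 and 1854 CPM; Ear2, a ribonuclease, had a log2 ratio of -0.90 ± 0.320, Mrc1, the mannose receptor, of -0.59 ± 0.226 and Fabp4, a lipid carrier, of -1.64 ± 1.60 (SD, n = 4). Chil3, a chitinase-like protein, went both ways between libraries (0.01 ± 0.415). Ccl17, a chemokine gene, was lowest by log2 ratio and stood at 2.26, 0, 0 and 0 against 9.61, 16.9, 23.9 and 116 CPM. Ccr7, a gene of the dendritic list, stood at 2.26, 0, 0 and 3.96 against 0.620, 3.17, 20.1 and 60.5 CPM. The class rests on a single Plet1 UMI, and the part of dendritic cell RNA in the Ccl17 values was not tested.

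In C1q macrophages, with as few as 4 cycling barcodes in WT 2, 18.0% of 4381 genes were higher and 10.1% lower in all 4 libraries. Of the cell cycle lists, 17 of 18 and 29 of 29 measured genes were higher. Nusap1, a spindle protein, stood at 92.7, 366, 154 and 127 CPM with no UMI in 261 others, and Ezh2, the Polycomb methyltransferase, had a log2 ratio of 2.60 ± 0.752 (SD, n = 4). The C1q genes themselves did not move together across libraries: C1qa, used by the lineage limit, had a log2 ratio of 0.13 ± 0.359 and C1qb of 0.20 ± 0.312. Lower genes included 6 of 9 for MHC class II presentation (H2-Aa -0.88 ± 0.584, H2-Ab1 -0.80 ± 0.640, Cd74 -0.87 ± 0.851) and 4 of 6 monocyte genes. Apoe, a lipid carrier, stood at 3550, 11445, 7906 and 4166 against 16139, 20493, 11717 and 8958 CPM. Cxcl13, a B cell attractant, had no UMI in the 42 cycling cells and stood at 47.9, 137, 71.2 and 291 CPM in others.

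Histone genes with symbols starting with Hist1h to Hist4h (67 genes) were summed without a limit to those made in replication. They stood at 1752, 1668, 1646 and 2060 CPM in cycling T cells and at 627, 491, 733 and 509 CPM in cycling alveolar macrophages, without overlap. S phase list levels were 7227, 4736, 4975 and 5410 CPM and 4819, 5711, 4489 and 4233 CPM. Of the histone genes measured in cycling against other cells, 6 of 6 were higher in T cells. In alveolar macrophages 3 of 7 were higher and 2 lower. The other lineages were not set apart: cycling C1q macrophages had 1089, 1611, 870 and 592 CPM of histones, and the few cycling NK cells 71.6 to 4852 CPM. Most of these histone transcripts lack a poly(A) tail, which this chemistry needs, so their levels are those of the captured part. Other neutrophils had 587 to 749 CPM of them, above the 183 to 219 CPM of other T cells and overlapping the range of cycling alveolar macrophages.

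**Figure D4:**
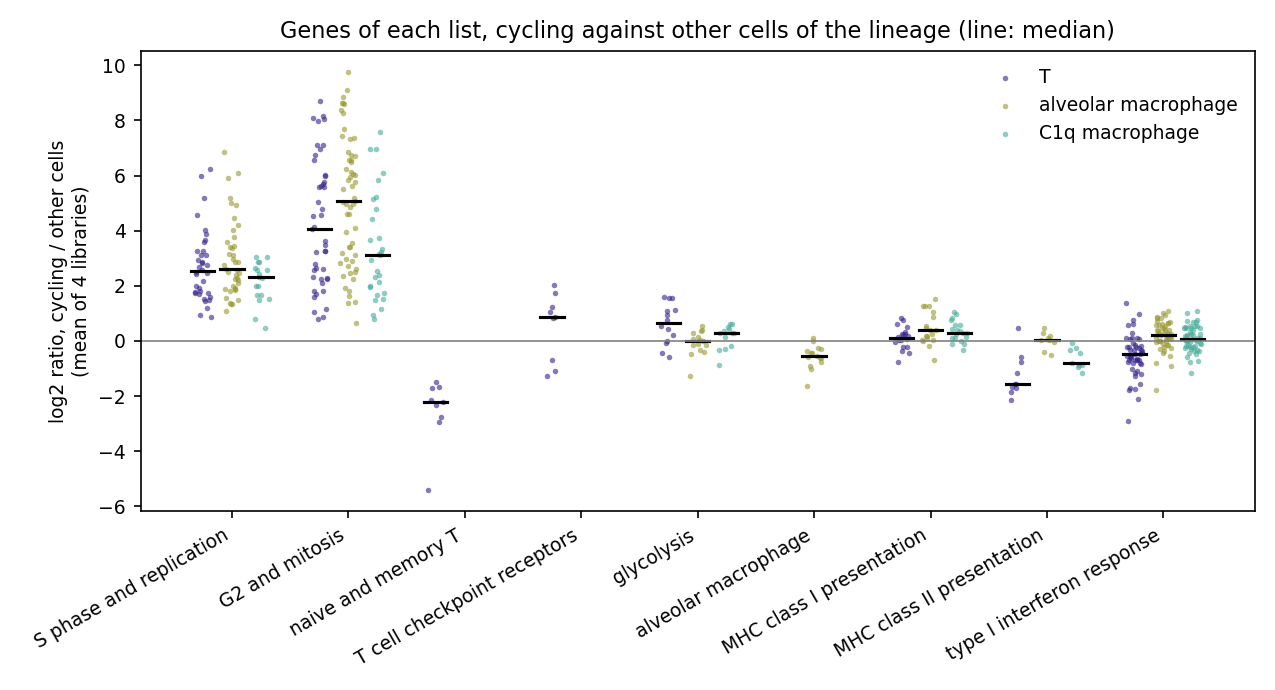
Mean over 4 libraries of the log2 ratio of CPM in cycling over other cells (vertical axis), 1 point per gene of each list (horizontal axis), for T cells, alveolar macrophages and C1q macrophages; black lines are medians. Cell cycle lists lie above 0 in each lineage, the naive and memory T list lies below 0 with a median of -2.22, and the alveolar macrophage list has a median of -0.56.

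The label contrast was then tested on UMI sums of members per library with edgeR's quasi-likelihood test (Benjamini-Hochberg adjustment over all genes; log2 differences are PD-L1 KO minus WT). Over all members, 0 of 10061 genes passed an adjusted p of 0.05 (0.0%), 587 had an unadjusted p under 0.05 (5.83%) and DESeq2 called 1. The smallest p belonged to Car4, carbonic anhydrase 4, at 52.6 and 32.3 CPM in the WT and 155 and 137 CPM in the PD-L1 KO libraries (log2 1.76, SE 0.22, adjusted p = 0.406). Klf2 stood at 683 and 874 against 433 and 448 CPM (log2 -0.79, adjusted p = 0.829) and Fosb, an immediate early gene, at 369 and 369 against 225 and 177 CPM (-0.85). Ms4a7, a macrophage membrane gene, stood at 76.0 and 72.6 against 160 and 128 CPM (0.99), Xaf1, an interferon-induced gene, at 17.2 and 25.2 against 48.4 and 44.6 CPM (1.23), and Pla2g2d, a phospholipase gene of dendritic cells, at 29.6 and 8.06 against 1.64 and 2.13 CPM (-3.41); the adjusted p of each was 0.829.

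Values of the type I interferon list pointed one way. All 63 of its 66 genes that passed the filter had a positive log2 difference (49.3% of all genes did), with a median of 0.62, and 44 of 63 had both PD-L1 KO libraries above both WT libraries (16.5% of all genes did). None passed the adjusted test, and 38 had an unadjusted p under 0.05. Of its 4 most abundant genes, Ly6e stood at 405 and 310 against 594 and 513 CPM (log2 0.65) and Samhd1, a nucleotide hydrolase, at 288 and 295 against 328 and 330 CPM (0.20), while Ifi27l2a (log2 0.21) and Ifitm3 (0.23) overlapped between groups. In the MHC class I list, 19 of 20 had a positive difference (median 0.39) and 16 did not overlap upward; B2m, the light chain, stood at 1471 and 1310 against 1963 and 1688 CPM (0.42), H2-K1, a heavy chain, at 1572 and 1347 against 1853 and 1743 CPM (0.33), and H2-D1 (0.38) and Psmb8 (0.40) did not overlap either. The naive and memory T list was negative for all 9 genes (median -0.43), 4 of them below both WT libraries (21.4% of all genes were). C1q macrophage genes were positive for 10 of 14 (median 0.48), beside a share of members with a C1qa UMI of 28.0% ± 13.6 in the WT and 43.5% ± 0.565 in the PD-L1 KO libraries (SD, n = 2). Dendritic genes were positive for 1 of 11 (median -0.71), beside cDC1 members numbering 14 in the WT and 1 in the PD-L1 KO libraries.

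The S phase and replication list did not overlap between labels over all members. It stood at 3836 and 3817 CPM in the WT and 3129 and 3339 CPM in the PD-L1 KO libraries (3827 ± 13.3 and 3234 ± 148, SD, n = 2; log2 -0.24; exact permutation p = 0.333), with 5 of 52 genes positive and 27 below both WT libraries (21.4% of all genes were). Single-lineage members showed the same order (4920 and 4936 against 4202 and 4299 CPM). The G2 and mitosis list overlapped over all members (11759, 16227, 12258 and 12428 CPM) but not in single-lineage members (18059 ± 3367 and 15182 ± 268 CPM, SD, n = 2; log2 -0.25; exact permutation p = 0.333).

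**Figure D5:**
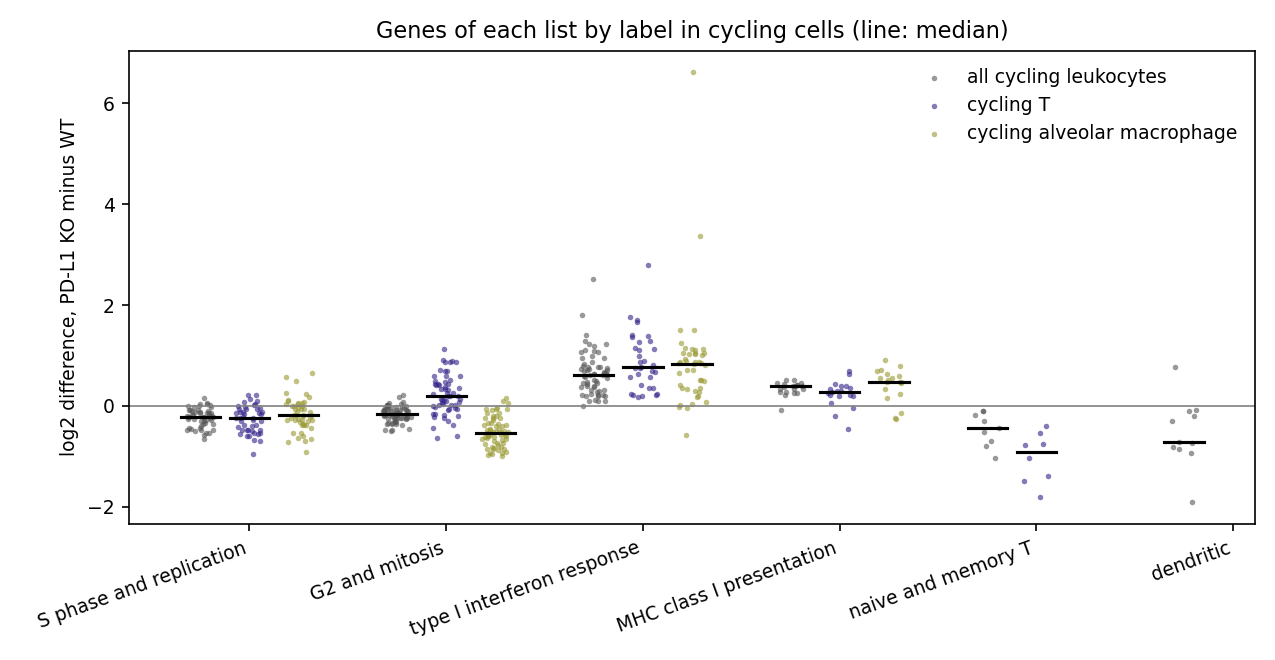
Log2 difference, PD-L1 KO minus WT (vertical axis), of the genes of 6 lists (horizontal axis) in all cycling leukocytes, cycling T cells and cycling alveolar macrophages; each point is 1 gene and black lines are medians. Interferon genes have medians of 0.62, 0.78 and 0.84, and the G2 and mitosis list has 0.19 in T cells and -0.53 in alveolar macrophages.

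For gene fits, single-lineage members are 254 barcodes, with those of no lineage included, unlike for the list levels above. In them, 1 of 8861 genes passed (0.0113%). Cst3, cystatin C, a transcript abundant in dendritic cells, fell from 4963 and 5862 CPM in the WT to 2195 and 2488 CPM in the PD-L1 KO libraries (log2 -1.19, SE 0.11, adjusted p = 0.0216). Without the 15 cDC1 barcodes its log2 difference was 0.29 and no gene of 8735 passed in edgeR (471 with an unadjusted p under 0.05), so the call rested on the dendritic barcodes. Cd207, a dendritic lectin gene, stood at 30.6 and 38.5 against 0 and 1.68 CPM and Cldn1 at 30.6 and 36.8 against 4.15 and 5.04 CPM, neither past the test (adjusted p = 0.107 and 0.139). Isg15, an interferon-induced ubiquitin-like protein, stood at 62.8 and 54.3 against 125 and 160 CPM (log2 1.28, adjusted p = 0.234).

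In cycling T cells (11 to 21 barcodes per library, below the planned 20), 1 of 4075 genes passed (0.0245%; 169 with an unadjusted p under 0.05). Ly6a, the Sca-1 surface protein that interferon induces, rose from 34.0 and 26.7 CPM in the WT to 236 and 480 CPM in the PD-L1 KO libraries (log2 3.49, SE 0.45, edgeR adjusted p = 0.0430). Other T cells had 55.7 and 36.2 against 127 and 263 CPM. The Ly6a call was lost without scaling, with upper quartile scaling, with a member limit of 2 UMIs and without the highest Scrublet scores (adjusted p up to 0.724). Klf2 stood at 659 and 887 against 202 and 352 CPM (log2 -1.49), Itgb7, a gut homing integrin chain, at 479 and 620 against 248 and 263 CPM (-1.11), Anxa1 at 74.7 and 80.0 against 12.2 and 17.8 CPM (-2.34) and Chchd10, a mitochondrial protein, at 67.9 and 46.7 against 184 and 160 CPM (1.52), each with an adjusted p of 0.904. All 33 interferon genes tested had a positive difference (median 0.78; 18 not overlapping upward, 15.9% of all genes), and 57 of 59 did in other T cells (median 0.68), where 45 of 8664 genes passed, all higher (0.519%). The 8 naive and memory genes tested were all negative (median -0.91), 2 of them below both WT libraries (15.9% of all genes were). In other T cells all 9 tested were negative too (median -0.48). The medians of the cell cycle lists were -0.24 (S phase) and 0.19 (G2 and mitosis), and their summed levels overlapped.

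In cycling alveolar macrophages (10 to 27 barcodes), 0 of 6318 genes passed (0.0%; 330 or 5.22% with an unadjusted p under 0.05, and 1 call by DESeq2). Car4, a gene of the alveolar list, stood at 208 and 129 CPM in the WT and 646 and 553 CPM in the PD-L1 KO libraries (log2 1.84, SE 0.26, adjusted p = 0.574), Wfdc17 at 120 and 119 against 281 and 303 CPM (1.35), and Mmp12, the macrophage elastase, at 22.6 and 21.6 against 69.7 and 125 CPM (2.18), the last 2 at an adjusted p of 0.911. Slfn5, an interferon-induced gene, had no UMI in the WT and 17 and 12 UMIs in the PD-L1 KO libraries. These genes were also higher without overlap in other alveolar macrophages. There Car4 stood at 482 and 293 against 663 and 567 CPM and Slfn5 at 18.0 and 11.1 against 43.2 and 41.4 CPM. Car4 was not typical of the alveolar list, where 6 of 14 genes were positive in cycling cells (median -0.01), beside 50.9% of all genes. Interferon genes were positive for 41 of 44 (median 0.84, with 23 not overlapping upward, 14.1% of all genes), and for 60 of 60 in other alveolar macrophages (median 1.22), where 18 of 9317 genes passed, all higher (0.193%). The 7 tested dendritic genes were all positive in other alveolar macrophages too (median 1.65, 1 past the test), beside 49.2% of all genes. The part of dendritic cell RNA in those calls was not tested.

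Summed mitotic transcripts of cycling alveolar macrophages did not overlap between labels either. The G2 and mitosis list summed to 18799 and 21675 CPM in the WT and 15995 and 13229 CPM in the PD-L1 KO libraries (20237 ± 2034 and 14612 ± 1956, SD, n = 2; log2 -0.47; exact permutation p = 0.333), with 3 of 64 genes positive, 50 below both WT libraries (21.6% of all genes were) and a median of -0.53. The 4 rule genes, whose UMIs chose the cells and which therefore add no support, are given as a description: Mki67 stood at 875 and 1035 against 712 and 519 CPM, Top2a at 862 and 1068 against 549 and 690, Cdk1 at 228 and 232 against 169 and 174 and Birc5 at 390 and 512 against 304 and 333. Of the abundant list genes, Stmn1, a tubulin-binding protein, stood at 954 and 1133 against 744 and 579 CPM and Tubb5 at 1879 and 2200 against 1563 and 1453 CPM, while H2afz and Tuba1b overlapped. The median 4-gene sum per barcode was 29 and 50.5 in the WT and 24.5 and 9 in the PD-L1 KO libraries. Its part in the list levels was not tested. Single barcodes weigh on these sums: the deepest of this class held 95271 UMIs (median 16899), in library sums of 185418 to 504430 UMIs. The highest 4-gene sum of the class, 219, was in PD-L1 KO 2. The part of such barcodes in the G2 and mitosis levels and in the gene fits was not tested. T cells and alveolar macrophages thus had opposite signs for this list, and the difference between them was not tested.

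Whether a label difference itself differed between cycling and other cells was tested as an interaction, with each library as a block. In T cells 3 of 7538 genes passed (0.0398%). Cst3 stood at 282 and 774 against 254 and 433 CPM in cycling and at 495 and 746 against 2089 and 2440 CPM in other T cells (edgeR interaction log2 -2.38, adjusted p = 0.000279). Cxcl2, a neutrophil chemokine gene, stood at 40.8 and 520 against 12.2 and 3.55 CPM in cycling and at 148 and 183 against 236 and 477 CPM in others (-5.60, adjusted p = 0.0154). S100a9, a neutrophil calprotectin chain, stood at 6.79 and 6.67 against 33.7 and 256 CPM in cycling and at 265 and 117 against 87.7 and 218 CPM in others (4.65, adjusted p = 0.0108), and it was lost in 1 of 4 fits that left out a library (adjusted p = 0.355). The 3 genes are abundant in myeloid cells, and the part of myeloid RNA in T barcodes was not tested. In alveolar macrophages 0 of 9194 genes passed in edgeR (0.0%; 335 with an unadjusted p under 0.05). Ifi27l2a came nearest: 769 and 253 against 507 and 646 CPM in cycling and 181 and 85.2 against 534 and 485 CPM in other alveolar macrophages (edgeR interaction log2 -1.67, adjusted p = 0.0552). The epithelial gene Krt18 was seen in 3 of the 86 cycling barcodes of this class, and the part of these barcodes in the class values was not tested.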

How the data were processed

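Single-cell 3′ libraries (10x Genomics, version 3 chemistry) of lung leukocytes selected with CD45 beads were made, per the labels' protocols. The submitters' processing notes name STAR and Cell Ranger 3.1.0 with mm10; no source used here gives the annotation release. Values are raw UMI counts of 31053 genes in each barcode, deposited without normalization, per the file headers. The 4 libraries were grouped by their labels into 2 WT and 2 PD-L1 KO.

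The members, gene lists and tests were chosen with earlier results of these data known. Counts were filtered as in the member rule, read with Python 3.11.15 and summed per library, because cells are not replicates. Sums were tested with edgeR 4.0.16 (R 4.3.3; filterByExpr, TMM, quasi-likelihood, adjusted p of 0.05), with the label alone or, for the interaction, with library as a block; DESeq2 1.42.0 was an alternative. Lineage fits had been planned for 20 barcodes in each library; none reached this, and fits with at least 10 were run after the numbers were seen. C1q macrophages had 4 in 1 library and were not fitted. Shares and list levels were tested with exact permutation tests (scipy 1.17.1). Ratios of cycling to other cells used CPM with 0.5 counts added, for genes with at least 100 UMIs in both together. Wilson intervals are at 95%. Thinning drew 3000 UMIs per barcode at a fixed seed.

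Named were the rule and lineage genes, genes past a test or else the 6 with the smallest p, the 4 most abundant genes of the lists described, and the highest and lowest of cycling against other cells; genes given beyond this were chosen after their values were seen. Doublets were scored with Scrublet (scanpy 1.11.5) at 0.8% per 1000 barcodes, which marked 172 of 9256 barcodes; they were kept, and left out as an alternative. Same-numbered libraries are not stated to be paired, and their deviations from group means correlated at -0.14 over all members. The edgeR fits over all members, in T cells and in alveolar macrophages were tested on simulated data. Those data had a fixed spread between libraries that was not taken from the libraries here. The single-lineage and interaction fits were not tested in this way.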

Additional observations from a re-analysis of the deposited data

Results flagged for a closer look

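The label difference of 3 genes was not the same in cycling and in other T cells, by edgeR's interaction test with library as a block (n = 2 libraries per label). For Cst3 the interaction was -2.38 on the log2 scale (adjusted p = 0.000279): both PD-L1 KO libraries were above both WT libraries in other T cells and the groups overlapped in cycling T cells. For Cxcl2 it was -5.6 (adjusted p = 0.0154), with 1 WT library, WT 2, far above the rest in cycling T cells at 520 CPM. For S100a9 it was 4.65 (adjusted p = 0.0108), with PD-L1 KO 2 at 256 CPM in cycling T cells. The cycling sums behind the low values are small, with 83 to 122 UMIs of Cst3 per library, 1 to 78 of Cxcl2, and 86 of S100a9 over the 4 libraries.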

How the results depend on the processing

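The share of cycling leukocytes kept its direction in each alternative run, and the values below are those that moved, PD-L1 KO minus WT. In points of share, the T makeup was 3.01 at 5% mitochondrial UMIs; the cycling NK share was 1.65 and 0.409 at member limits of 2 and 5 UMIs, 0.938 at 5% mitochondrial UMIs, 1.76 thinned to 3000 UMIs and between -2.89 and 1.76 with 1 library left out, and the NK makeup was -7.49 to 0.532 with 1 library left out. The alveolar macrophage makeup was -0.342 at a limit of 5 UMIs, -1.41 with lineage limits of 1 UMI, and -3.43 (without WT replicate 2) to 4.65 with 1 library left out, with -0.0199 without PD-L1 KO replicate 2. The C1q macrophage share was -5.65 at 5% mitochondrial UMIs, -0.641 thinned and -0.789 to 7.23 with 1 library left out, and its makeup was -3.19 at 5% mitochondrial UMIs. The G2 and mitosis level over all members was -0.395 to 0.0699 on the log2 scale with 1 library left out, and the list's median -0.438 to 0.0924, positive without WT replicate 2.

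Numbers of genes past the test over all members were 1 with DESeq2, 1 and 5 at limits of 2 and 5 UMIs, and 0 to 230 with 1 library left out, the highest without WT 1. For single-lineage members they were 16 with DESeq2, 15 with no filter on low counts, 2 at a limit of 5 UMIs, 0 without cDC1 barcodes and 13 to 116 with 1 library left out; Cst3 was 0.287 without cDC1 barcodes. For T cells they were 0 without scaling, with upper quartile scaling, at a limit of 2 UMIs and without the highest Scrublet scores, 29 with no filter, 2 at a limit of 5 UMIs and 13 to 56 with 1 library left out. For alveolar macrophages they were 1 with DESeq2, 34 with no filter and 1 to 62 with 1 library left out. The interactions had 11 to 17 genes in T cells and 4 to 44 in alveolar macrophages with 1 library left out, and 1 in the latter without scaling. A lone library in a group is then assumed to vary like the other group, so these larger numbers rest on 1 library.

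With the replicate number as a block, the numbers were 1 gene over all members, 3 in single-lineage members and 29 in T cells. Same-numbered libraries deviated in opposite directions over all members (r = -0.14), in alveolar macrophages (-0.36) and in single-lineage members (-0.09) and in the same direction in T cells (0.17), so the numbers are not taken as pairs. With crossed numbers, a choice made after the data were seen, 2 genes passed over all members.

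Single genes changed sign in few settings, given here as log2 ranges with 1 library left out. Over all members, Ifi27l2a ran from -0.0177 (without WT replicate 1) to 0.484. In T cells, Ifi203 ran from -0.212 to 0.796, with -0.0550 without WT replicate 1, and the S phase median from -0.479 to 0.122; Sp100 was -0.0846 at a limit of 2 UMIs. In alveolar macrophages, Ifi27l2a ran from -0.354 to 1.25, with -0.00388 without PD-L1 KO replicate 2, and Ifitm3 from -2.59 to 4.37, with -0.764 without WT replicate 2, -0.0363 without scaling and -0.0620 with the replicate block. H2afz ran from -0.193 to 0.0532, Tuba1b from -0.576 to 0.109 and the Ly6a interaction from -4.65 to 2.10. Medians of the interferon list stayed between 0.488 and 0.866 over all members, 0.345 and 1.42 in T cells and 0.585 and 1.74 in alveolar macrophages. The causes of these shifts were not tested. With 2 libraries per label and 10 to 27 barcodes per lineage sum, small differences were not detectable.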
